A study of Mus musculus with 4 samples.

Results

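Among the mesenchymal cells of the parotid salivary gland of mouse embryos at embryonic day 12, 677 carried 3 or more transcripts of the T-box gene Tbx18 and none of Pax1. They made up 19.03% of the 3557 mesenchymal cells of that library (95% interval 17.8 to 20.4), out of 14884 cells kept from the 4 libraries of the study. They were selected on measured values: barcodes of the parotid mesenchyme library with at least 500 genes, at most 10% mitochondrial transcripts and at least 2 UMIs of Pdgfra and Col3a1 together were kept as mesenchymal, and those with 3 or more Tbx18 and 0 Pax1 UMIs are called Tbx18-positive here. A UMI is a unique molecular identifier and marks 1 captured RNA molecule. They were set against the 1981 cells of the same library with 0 Tbx18 UMIs, called Tbx18-zero. Another 825 cells had 1 or 2 Tbx18 UMIs, and 74 had 3 or more together with Pax1.

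Parotid and submandibular glands of ICR mice, an outbred strain, were dissected at embryonic day 12 with about 10 glands of each kind pooled, and Dispase II separated epithelium from mesenchyme. No treatment or genetic change was given to any group. Each of the 4 tissues gave 1 library on the 10x Chromium droplet system, so every group is 1 pool of glands and cells are not replicates. No test between groups can be made and no p-value is given. All intervals below are 95% intervals for counting error. They do not cover the spread between cells or differences between embryos, litters or dissections.

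Tbx18 encodes a DNA-binding T-box factor of the same subfamily as Tbx15, and both are known from mesenchyme beneath the skin and around developing organs. Pax1 is a paired-box factor known from the pharyngeal pouches and from the sclerotome of the somites. Salivary mesenchyme derives from neural crest and signals to the epithelial bud. Fgf10, which it secretes, acts on an epithelial receptor and is needed in mice for the glands to form.

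The label under which these cells were proposed names Tbx15 beside Tbx18, and whether Tbx15 was higher in them depended on the comparison cells. The Tbx18 UMIs (gene on chromosome 9, 87702800 to 87731260, minus strand, GRCm38) that chose the cells ran from 3 to 22 per cell with a median of 5. Summed over the group they made 981 CPM, the gene's UMIs scaled to a fixed common total of all UMIs of the group. Tbx15 was at 69.2 CPM (61.3 to 77.7) in the Tbx18-positive and 69.1 CPM (64.6 to 73.9) in Tbx18-zero cells, a ratio of 1.00 (0.872 to 1.15). The Tbx18-zero group keeps cells with Pax1, which the rule removes from the Tbx18-positive group, and Tbx15 was at 120 CPM in the 325 cells with 3 or more Pax1 and 0 Tbx18 UMIs. Against the 1302 Tbx18-zero cells with 0 Pax1 UMIs, at 42.5 CPM, Tbx15 was 1.63-fold higher (1.38 to 1.91) in Tbx18-positive cells. The cells are called by their rule, since Tbx15 was not limited to them. Other T-box genes differed little from the Tbx18-zero group: of 17 in the list, 4 reached 20 CPM and none was 2-fold apart, with Tbx3 at 170 against 144 CPM and Tbx2 at 51.8 against 41.9 CPM.

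Both groups were mesenchymal by their other markers and of like depth. The median cell held 5539 UMIs in the Tbx18-positive and 5673 in the Tbx18-zero group, with 4.31% and 4.12% mitochondrial UMIs. The 8 mesenchymal markers outside the rule summed to 3885 against 2533 CPM, led in Tbx18-positive cells by Lum. Epithelial markers summed to 18.6 against 19.3 CPM, with Cdh1 at 0 UMIs in Tbx18-positive cells. Skeletal muscle markers summed to 59.9 against 160.5 CPM, endothelial markers to 72.3 against 41.3 CPM, neural crest and glia markers to 7.58 against 30.0 CPM and macrophage markers to 5.38 against 2.82 CPM. Tbx18 itself lay between 1.7 and 4.7 CPM in the epithelial, endothelial, muscle and blood cells of the library, and no cell of those classes had 3 UMIs. Those classes do not cover every cell outside the mesenchymal selection. Of the 4421 kept cells of the library 783 had 3 or more Tbx18 UMIs, and 751 of these were among the 3557 mesenchymal cells. Tbx18 was thus not confined to the cells selected as mesenchymal. Between 12 and 32 kept barcodes were shared with each other library.

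Tbx18-positive cells carried more mRNA of a growth factor, of retinoic acid enzymes and of neurofilaments than Tbx18-zero cells. Of 3101 genes with at least 50 CPM in either group, 63 (2.03%) were at least 2-fold higher in Tbx18-positive cells and 30 (0.967%) at least 2-fold lower. The highest ratio was that of Fgf10, at 20.0-fold. Among the named genes that reached 50 CPM, Ogn, the small leucine-rich matrix proteoglycan osteoglycin, had the lowest ratio, at 12.3-fold lower. Of the 30 lower genes, 7 were haemoglobin genes. Since Tbx18 selected the cells, ratios are a description of them and not evidence for the selection.

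**Figure D1:**
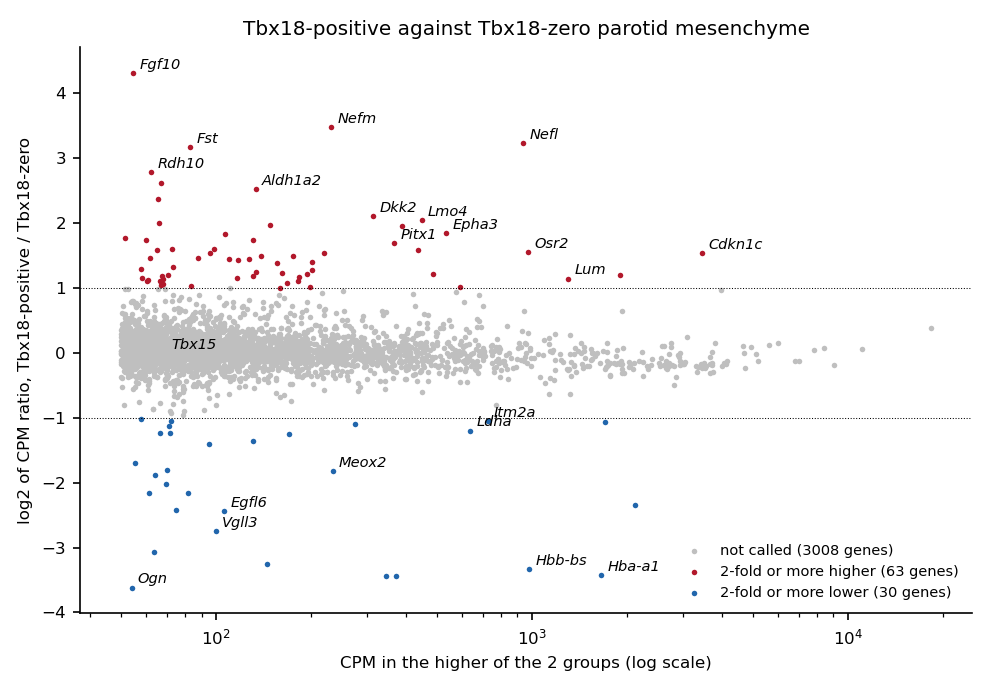
Each point is 1 of the 3101 genes with at least 50 CPM, with the CPM of the higher group on a log scale against the log2 CPM ratio of Tbx18-positive over Tbx18-zero cells; dotted lines mark 2-fold. The 63 higher genes run up to Fgf10, Nefm and Nefl, the 30 lower genes down to Ogn and haemoglobin, and Tbx15 lies at 0.

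Fgf10 (chromosome 13, 118669791 to 118792115, plus strand, GRCm38) was measured by 224 UMIs in Tbx18-positive cells, 54.7 CPM (47.8 to 62.4). The Tbx18-zero cells held 35 UMIs, 2.74 CPM (1.91 to 3.82), which gives the ratio of 20.0 (13.9 to 29.4). Tbx18-positive cells thus held 70.7% (65.3 to 75.6) of the Fgf10 UMIs of all gated parotid mesenchyme with 18.0% of its UMIs. Only 21.4% of Tbx18-positive cells showed an Fgf10 UMI once each cell was thinned to 5000 UMIs, against 1.46% of Tbx18-zero cells. The highest count in a cell was 5 and the 10 cells with most held 17.9%, so the difference did not sit in a few cells.

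Genes of retinoic acid metabolism were split. Retinoic acid is made from retinol in consecutive oxidations, the first by the enzyme Rdh10 and the second by Aldh1a2, and reaches nuclear receptors such as Rarg. Aldh1a2 (chromosome 9, 71215789 to 71296243, plus strand) was at 133 CPM (122 to 145) against 23.1 CPM (20.6 to 25.9), 5.77-fold higher (5.00 to 6.67). Rdh10 was at 62.3 against 9.01 CPM, 6.91-fold higher (5.53 to 8.69). Stra6, a membrane receptor that takes up retinol, was at 33.7 against 11.99 CPM (2.81-fold). Of the 14 genes of the retinoic acid list, which does not hold Rdh10, 7 reached 20 CPM, and 2 of these were 2-fold higher and none 2-fold lower. Their median log2 ratio was 0.82, beside 0.06 over the 5838 genes tested at that level, of which 2.3% were 2-fold higher and 1.22% 2-fold lower. Crabp2 (680 against 366 CPM) and Rarg (128 against 72.3 CPM) were higher by under 2-fold, while Crabp1, another retinoic acid binding protein, was lower at 147 against 219 CPM.

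The first 250 bases before the RefSeq start (GRCm38.p6) of the gene that defines the cells and of these leading genes are shown here because these genes were high together; the start used for Fgf10 lies within the span given above. Capitals mark AGGTGT or its reverse complement ACACCT, the first 6 letters of the T-box half-site AGGTGTGA, searched on both strands.
Tbx18, chr9:87731261-87731510, minus strand: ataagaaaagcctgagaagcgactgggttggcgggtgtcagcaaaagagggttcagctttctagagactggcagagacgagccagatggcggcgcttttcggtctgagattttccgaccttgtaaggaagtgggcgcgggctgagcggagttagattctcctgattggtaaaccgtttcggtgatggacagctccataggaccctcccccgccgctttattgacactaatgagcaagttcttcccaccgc
Fgf10, chr13:118714449-118714698, plus strand: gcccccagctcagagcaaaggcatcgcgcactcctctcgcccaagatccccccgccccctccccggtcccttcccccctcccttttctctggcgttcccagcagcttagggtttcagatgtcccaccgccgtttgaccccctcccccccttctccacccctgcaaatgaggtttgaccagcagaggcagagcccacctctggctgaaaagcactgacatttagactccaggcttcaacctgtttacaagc
Aldh1a2, chr9:71215539-71215788, plus strand: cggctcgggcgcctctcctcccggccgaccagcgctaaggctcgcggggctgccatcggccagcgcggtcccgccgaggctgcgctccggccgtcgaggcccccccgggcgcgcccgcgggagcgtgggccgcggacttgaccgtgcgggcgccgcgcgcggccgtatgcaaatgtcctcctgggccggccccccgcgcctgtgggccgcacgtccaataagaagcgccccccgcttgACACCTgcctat
The whole half-site occurred in 1.12% of 32851 such windows and in none of the 33 windows matched to 21 of 28 genes, which were the 12 highest, the 12 lowest, Tbx18, Tbx15, Nefl and Nefm. The 6-letter form occurred in 11.8% of all windows and in 1 of the 33, that of Aldh1a2. A match is a description of the letters and not a binding site, and no match says only that these letters are not in this window.

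The neurofilament genes Nefl and Nefm, whose proteins build the intermediate filaments of axons, had high ratios in Tbx18-positive cells. Nefl was at 937 CPM (907 to 967) against 99.7 CPM (94.3 to 105), 9.40-fold higher (8.82 to 10.0). Nefm was at 231 CPM (217 to 246) against 20.8 CPM (18.3 to 23.4), 11.1-fold higher (9.70 to 12.8). A Nefl UMI was found in 444 of the 677 cells and the 10 cells with most held 9.16% of them, so Nefl was widespread among the cells. Their annotated spans overlap on opposite strands of chromosome 14 (Nefl 68083863 to 68089095, Nefm 68082590 to 68124846), and whether counting used the strand is not given in the sources used here.

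The other neuron markers were mixed. Prph, the gene of another neuronal intermediate filament, was at 3.18 against 0.549 CPM on 13 and 7 UMIs. Elavl3 was at 0 UMIs in Tbx18-positive cells, Isl1 at 1, Snap25 at 4 and Elavl4 at 5. Tubb3 stood at 132 against 110 CPM and Gap43 at 101 against 155 CPM. Stmn2, a neuronal microtubule regulator, was at 25.9 against 0.470 CPM, and its 106 UMIs came from 21 cells. Those 21 cells had 2880 CPM of Nefl against 881 CPM in the other 656, and Lum at 1182 against 1307 CPM. Without these cells Nefl was thus still above the 99.7 CPM of Tbx18-zero cells.

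Among WNT genes, 2 of 5 tested response genes and 2 of 5 tested secreted antagonists and R-spondins were at least 2-fold higher in Tbx18-positive cells and none was 2-fold lower, beside 2.3% and 1.22% of all 5838 genes at 20 CPM. Dkk2, a secreted modulator of WNT receptors, was at 315 CPM (298 to 332) against 72.8 CPM (68.2 to 77.7), 4.32-fold higher (3.97 to 4.71). The ligand gene Wnt2 was at 36.9 against 4.08 CPM, 9.05-fold higher (6.57 to 12.7), and Tbx18-positive cells held 58.3% of its UMIs. Wnt5a did not differ, at 58.7 against 57.4 CPM. Of the WNT response list, 5 of 13 genes reached 20 CPM: Lef1, the nuclear partner of beta-catenin, was at 110 against 40.1 CPM (2.73-fold), the R-spondin receptor Lgr4 at 36.7 against 13.7 CPM (2.67-fold), and the feedback inhibitors Nkd1 and Axin2 were 1.66-fold and 1.61-fold higher. Their median log2 ratio was 0.73, beside 0.06 over all genes tested. Lef1 was uneven across the Tbx18-positive cells, at 145 CPM at 3 Tbx18 UMIs, 29.7 at 6 and 81.5 at 7 or more. It was at 35.1 CPM in cells with 0 Tbx18 and 0 Pax1 UMIs. Of the 14 secreted WNT antagonists and R-spondins, the 2-fold higher ones were Dkk2 and Rspo3, and the median of the 5 tested was 0.85.

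Fst, whose product follistatin binds activins and some BMPs, was at 82.9 against 9.17 CPM (9.03-fold, 7.30 to 11.2). It was patchy: 131 of 677 cells had a UMI, and the 10 highest cells held 25.1% of them. The BMP target genes Id1 (344 against 221 CPM) and Id3 (546 against 385 CPM) were higher by under 2-fold, and Bambi, a BMP pseudoreceptor, was lower at 11.5 against 21.8 CPM. The FGF response list showed no 2-fold difference in 5 tested members, with Dusp6 at 61.3 against 55.3 CPM and Spry2 at 82.9 against 78.5 CPM. Of all 5838 genes at 20 CPM 2.3% were 2-fold higher and 1.22% lower, so none among so few members is near that share. Hedgehog pathway members (4 tested) were also within 2-fold, again near the share of all genes. Hes1, a Notch target, was lower at 12.2 against 42.4 CPM (3.47-fold lower, 2.59 to 4.73).

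Transcription factors of the facial arches went both ways. Of 47 in the list, 25 reached 20 CPM, 5 were 2-fold higher and 4 were 2-fold lower, beside 2.3% and 1.22% of all 5838 genes, and the list's median log2 ratio was -0.10. The higher ones were Pitx1, a hindlimb and first-arch homeobox factor (367 against 113 CPM, 3.24-fold), Osr2, a palate and tooth factor (971 against 331 CPM, 2.93-fold), Twist1 (127 against 46.6 CPM), Dlx6 (73.1 against 29.2 CPM) and Lhx8 (487 against 210 CPM). The lower ones were the Iroquois genes Irx5 (1.47 against 31.4 CPM, 21.4-fold lower, 9.76 to 58.8) and Irx3 (2.20 against 37.3 CPM), Vgll3 (14.9 against 99.7 CPM) and Barx1 (129 against 276 CPM). Prrx1 (397 against 452 CPM) and Osr1 (287 against 287 CPM) differed little. Among other regulators, Lmo4 was 4.15-fold higher (448 against 108 CPM) and Creb5 3.90-fold higher (387 against 99.2 CPM). Hoxd1 was at 0.489 against 22.3 CPM and Ebf2 at 0.733 against 22.1 CPM, and Eya1, a transcriptional coactivator, was 4.82-fold lower. Irx3, Irx5 and Hoxd1 were at 97.4, 94.8 and 73.5 CPM in the Pax1 cells, which are part of the Tbx18-zero group. Against Tbx18-zero cells with 0 Pax1 UMIs the differences were smaller: Irx5 was 7.51-fold lower, Irx3 8.10-fold and Vgll3 3.47-fold, where the values against all Tbx18-zero cells were 21.4, 17.0 and 6.69. Hoxd1, with 2 UMIs in Tbx18-positive cells, had a ratio of 0.101 (0.0119 to 0.391) against the cells without Pax1.

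Receptors and ligands of axon guidance, which also steer other migrating cells, were at least 2-fold higher in 5 and 2-fold lower in 2 of 14 tested members, beside 2.3% and 1.22% of all 5838 genes. Of the 14, 10 lay above a ratio of 1, as did 3485 of the 5838. Epha3, an ephrin receptor, was at 535 CPM (513 to 558) against 149 CPM (142 to 156), 3.59-fold higher (3.37 to 3.82). The semaphorin co-receptors parted: Nrp1 was at 98.3 against 32.2 CPM (3.05-fold higher) and Nrp2 at 18.3 against 81.6 CPM (4.45-fold lower). Sema5a, Robo2 and Slit2 were higher by 2.90-fold, 2.75-fold and 2.35-fold, and Sema3a was at 28.4 against 66.6 CPM.

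Matrix genes differed by member. The 3 collagen VI chains were higher together: Col6a1 at 175 against 61.8 CPM, Col6a2 at 116 against 52.5 CPM and Col6a3 at 42.8 against 11.99 CPM. Of the 11 tested collagens these 3 were 2-fold higher and none 2-fold lower, beside 2.3% and 1.22% of all 5838 genes. Col1a1 stood at 610 against 353 CPM. Of 24 tested members of the list of matrix proteoglycans and glycoproteins 1 was 2-fold higher, Lum, and 3 were 2-fold lower, Ogn, Vcan and Itm2a. Itm2a, which the list holds, is the gene of a membrane protein, and it fell under 2-fold in 6 of the 13 alternatives. The proteoglycan Lum was at 1304 against 589 CPM (2.21-fold, 2.14 to 2.29) and the crosslinking enzyme gene Lox at 139 against 49.4 CPM. In contrast Ogn (chromosome 13, 49608046 to 49624501, plus strand) was at 4.40 CPM (2.61 to 6.95) against 54.0 CPM (50.05 to 58.2). Vcan, the large proteoglycan versican, was at 20.0 against 69.9 CPM, and Egfl6, a basement membrane protein, at 19.6 against 106 CPM (5.44-fold lower). Lum and Ogn encode related small proteoglycans and differed in opposite directions.

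**Figure D2:**
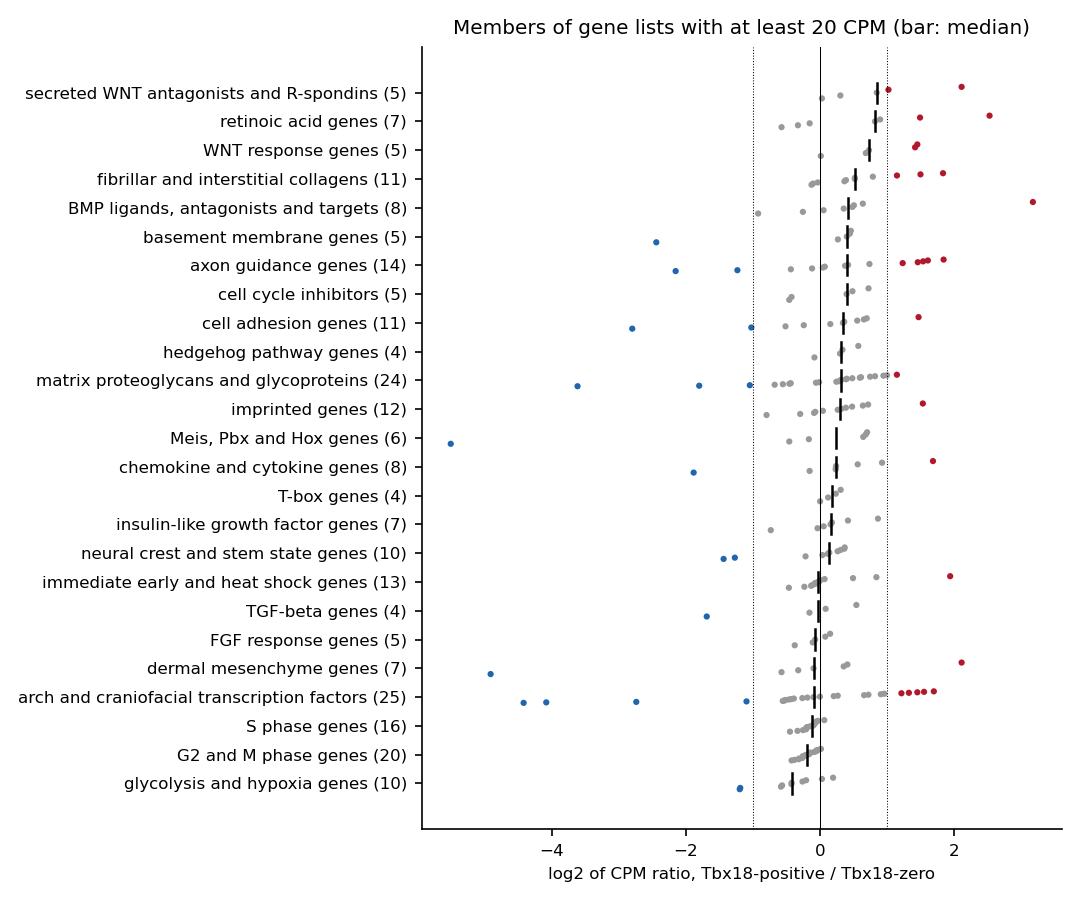
Each point is 1 member with at least 20 CPM of 1 of 25 gene lists (number of points in brackets), placed by its log2 CPM ratio of Tbx18-positive over Tbx18-zero cells; bars are list medians and dotted lines mark 2-fold. Retinoic acid, WNT and collagen lists have medians above 0.5, arch factors and guidance genes spread to both sides, and S phase genes lie close to 0.

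Most S, G2 and M phase genes were slightly lower, the cycle inhibitor Cdkn1c was higher, and other cycle regulators went both ways. Cdkn1c, the imprinted gene of the inhibitor p57, was at 3446 CPM (3389 to 3503) against 1190 CPM (1172 to 1210), 2.89-fold higher (2.83 to 2.96), and was found in 667 of 677 cells. Of 16 S phase genes 1 was above a ratio of 1 and of 20 G2 and M phase genes 1, with median log2 ratios of -0.12 and -0.19. Over all 5838 genes tested, 3485 were above 1 and the median was 0.06. Cdk1 was at 115 against 155 CPM and Mki67 at 34.0 against 42.2 CPM, so none of them differed by 2-fold. Of other cycle regulators, Ccnd1 (211 against 128 CPM), Ccnd2 (310 against 235 CPM) and Ccng1 (27.6 against 19.8 CPM) were higher. Btg1 (205 against 282 CPM) and Btg2 (45.7 against 61.4 CPM) were lower. Glycolysis genes were lower by a median log2 ratio of -0.42, led by Ldha at 277 against 636 CPM (2.29-fold lower). Of other imprinted genes, H19 was at 699 against 425 CPM and Mest at 444 against 772 CPM.

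Haemoglobin and sex-linked RNA also differed between the groups, and the part of sex-linked RNA in the other results was not tested. The 10 blood markers summed to 759 against 5691 CPM. No Tbx18-positive cell and 7 Tbx18-zero cells had over 1% haemoglobin UMIs, and without those 7 cells 62 of the 63 higher genes and 23 of the 30 lower genes were called, the 7 lost lower genes being those of haemoglobin. Of the Hba-a1 UMIs of Tbx18-zero cells 91.2% were in 10 cells, and without those 7 cells its log2 ratio was 0.048. Xist, made by the inactive X chromosome of female cells, was at 2.93 CPM in Tbx18-positive, 24.8 CPM in Tbx18-zero and 998 CPM in submandibular mesenchyme. The Y-linked Ddx3y was at 78.7, 64.4 and 28.6 CPM in the same order. The sexes of the pooled embryos are not given in the sources used here.

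Acta2, the actin of smooth muscle, counted among the 12 lowest ratios at 13.9 against 74.6 CPM, but the value rests on few cells. Of its 952 UMIs in Tbx18-zero cells, 38.1% were in 10 cells, and leaving out the 67 Tbx18-zero and 7 Tbx18-positive cells taken as likely doublets turned the ratio to 1.06. Ogn, Vgll3, Egfl6, Nrp2 and Meox2 stayed lower in Tbx18-positive cells in all 13 alternatives run on them, with Meox2 at 0.339 as the highest ratio.

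Relative to other kinds of parotid mesenchyme the 12 highest genes kept their side and the 12 lowest did so in part. The 12 highest were all at least 2-fold higher also than in the 325 Pax1 cells (3 or more Pax1, 0 Tbx18), and 11 of 12 than in 152 cells with 3 or more UMIs of Msx1 and Lef1 together and neither Tbx18 nor Pax1. Both kinds are part of the Tbx18-zero group on which the genes were chosen, so keeping sides follows in part from that choice. Of all 63 higher genes, 52 were 2-fold higher than in Pax1 cells and 50 than in Msx1 and Lef1 cells. Of all 30 lower genes, 16 and 13 were 2-fold lower, while 3 and 9 lay above a ratio of 1. The share of all tested genes past 2-fold in these comparisons is not given, so the counts are a description only. Fgf10 was at 1.71 CPM in the Pax1 cells and 3.27 CPM in the Msx1 and Lef1 cells. Among the 12 lowest, 8 were 2-fold lower than in Pax1 cells and 8 than in Msx1 and Lef1 cells. Vgll3 reached 213 CPM in Pax1 cells and 9.81 CPM in Msx1 and Lef1 cells, so its low level was shared with the latter. Against Msx1 and Lef1 cells Fam150b was higher in Tbx18-positive cells (13.7 against 3.27 CPM, 4.19-fold, 1.55 to 15.9), and against Pax1 cells Acta2 was at 13.9 against 10.3 CPM. Against all Tbx18-zero cells with 0 Pax1 UMIs the 12 lowest were each 2-fold lower, Fam150b by 2.54-fold in place of 4.48-fold.

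**Figure D3:**
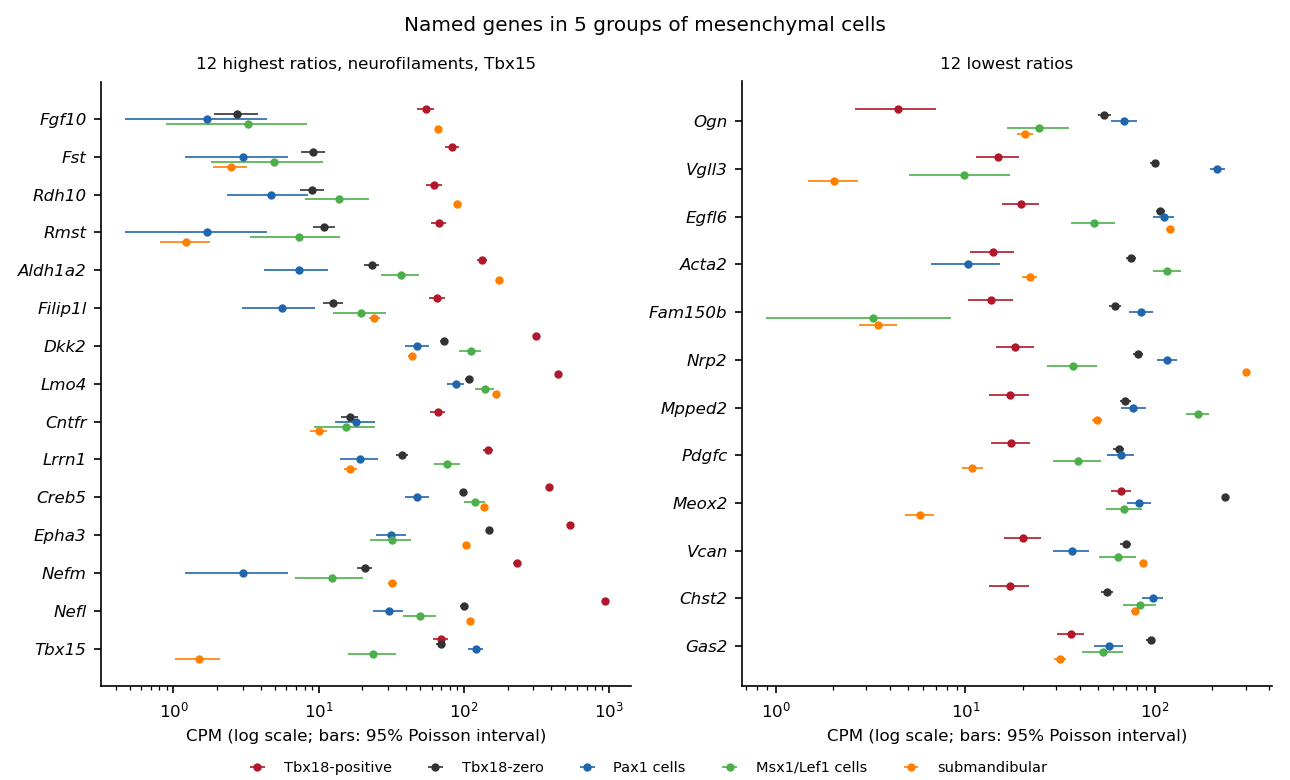
CPM on a log scale (points, with 95% Poisson intervals) of the 12 highest and 12 lowest ratios, the neurofilament genes and Tbx15 in Tbx18-positive cells, Tbx18-zero cells, Pax1 cells, Msx1 and Lef1 cells and all gated submandibular mesenchyme. Fgf10, Rdh10 and Aldh1a2 are close in Tbx18-positive and submandibular cells, while Tbx15 is not higher in Tbx18-positive than in Tbx18-zero cells.

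Submandibular mesenchyme held the leading growth factor and retinoic acid genes without Tbx18. Tbx18 was at 7.44 CPM over its 3661 gated cells, and 9 of them (0.246%, 0.112 to 0.466) met the same rule. Yet Fgf10 was at 66.3 CPM there, so that Tbx18-positive parotid cells stood at 0.826 of it (0.715 to 0.952). Aldh1a2 was at 174 CPM, Rdh10 at 90.2 CPM, Pitx1 at 595 CPM and Cdkn1c at 10247 CPM, each above the Tbx18-positive parotid level. Fst (2.48 CPM), Rmst (1.22 CPM), Wnt2 (8.34 CPM), Dkk2 (44.2 CPM) and Nefl (110 CPM) were in contrast below it. These libraries are 1 pool each, so gland and library cannot be told apart.

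Since 9 cells are few, the 128 submandibular cells with at least 1 Tbx18 UMI were set against those of that library with 0. Of 3217 genes tested there, 0.653% were 2-fold higher and 0.342% 2-fold lower. Of the 63 parotid higher genes 38 were tested and 8 were 2-fold higher, and 28 (73.7%) lay above 1, beside 54.6% of all genes tested. Of the 30 lower genes 19 were tested, 9 were 2-fold lower and 17 (89.5%) lay below 1, beside 45.4% of all. The 9 and the 17 both include 7 haemoglobin genes, and the other 2 of the 9 were Cdh2 and Mpped2. In the parotid these 7 were not called once the 7 cells over 1% haemoglobin were left out. Wnt2 (4.29-fold, 2.74 to 6.48), Dkk2 (2.32-fold, 1.83 to 2.91), Lum (2.04-fold) and Epha3 (1.85-fold) were higher with Tbx18 in both glands. Fgf10 (0.505, 0.337 to 0.729), Aldh1a2 (0.766, 0.630 to 0.923) and Pitx1 (0.823, 0.745 to 0.907) had ratios below 1 there. Of the 12 highest parotid genes 7 were tested there, 4 (57.1%) lay above 1 and 1 was 2-fold higher. In the same library 4 of the 1181 kept cells outside the mesenchymal gate had a Tbx18 UMI (0.339%, 0.0924 to 0.865), against 128 of 3661 inside it (3.50%, 2.93 to 4.14), at median depths of 6078 and 5378 UMIs.

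**Figure D4:**
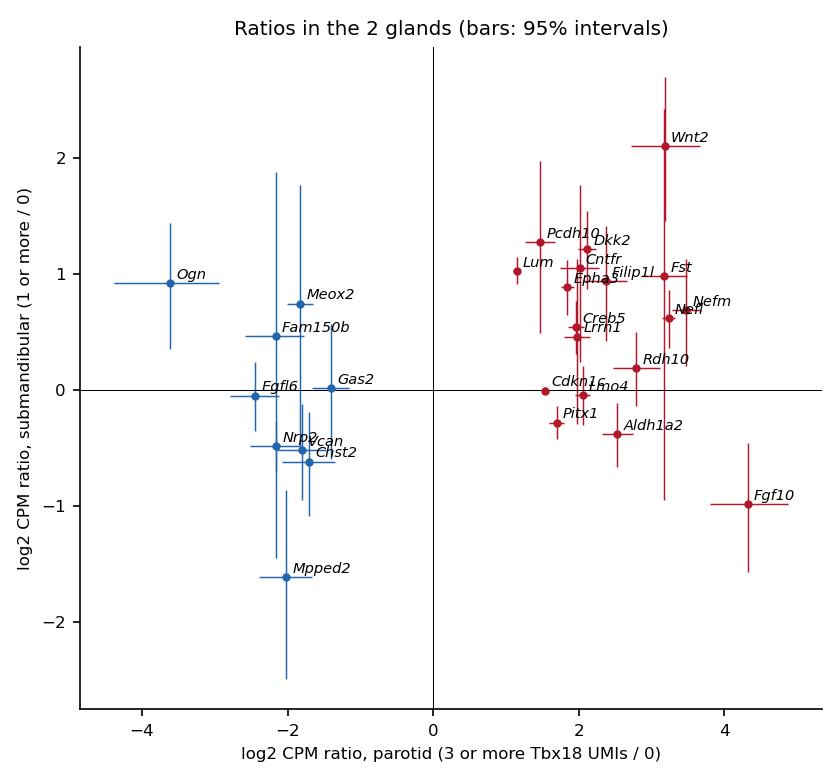
Log2 CPM ratio of cells with over cells without Tbx18 in the parotid (horizontal) and the submandibular library (vertical) for 27 named genes with at least 4 submandibular UMIs, with 95% intervals. Wnt2, Dkk2, Lum and Epha3 are above 0 on both axes, and Fgf10, Aldh1a2 and Ogn have opposite signs.

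Cells with 0 Pax1 UMIs were then binned by their Tbx18 UMIs. The genes had been chosen on Tbx18 counts of 3 or more against 0, so a difference between those bins follows from the choice and is given as a description. The cells at 0 took part in that choice, so it also favours a difference between 0 and 1. The share of all genes that rose from 0 to 1 is not given. The geometric mean of the 12 highest was 31.3 CPM at 0 Tbx18 UMIs, 46.0 at 1, 59.8 at 2, 80.2 at 3 and 197 at 7 or more. Of the 12, 10 were higher at 1 than at 0, the exceptions being Epha3 (190 CPM at 0 and 119 at 1) and Fst (12.6 and 8.19 CPM). The geometric mean of the 12 lowest went from 74.5 CPM at 0 to 10.5 at 6 and 16.3 at 7 or more, and Vgll3 (51.7 and 76.2 CPM) and Fam150b (34.7 and 49.5 CPM) were higher at 1 than at 0. At the edge of the rule, cells with 2 UMIs (216) and with 3 UMIs (164) were alike in Fgf10, at 15.8 and 16.6 CPM, and nearer in Aldh1a2, at 59.5 and 82.9 CPM, than the groups were. Nefl was at 286 and 393 CPM in these cells, Osr2 at 812 and 946 CPM and Tbx15 at 110 and 92.3 CPM. Median depth was 5434.5 UMIs at 2, 5246 at 3 and 5700.5 at 7 or more.

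**Figure D5:**
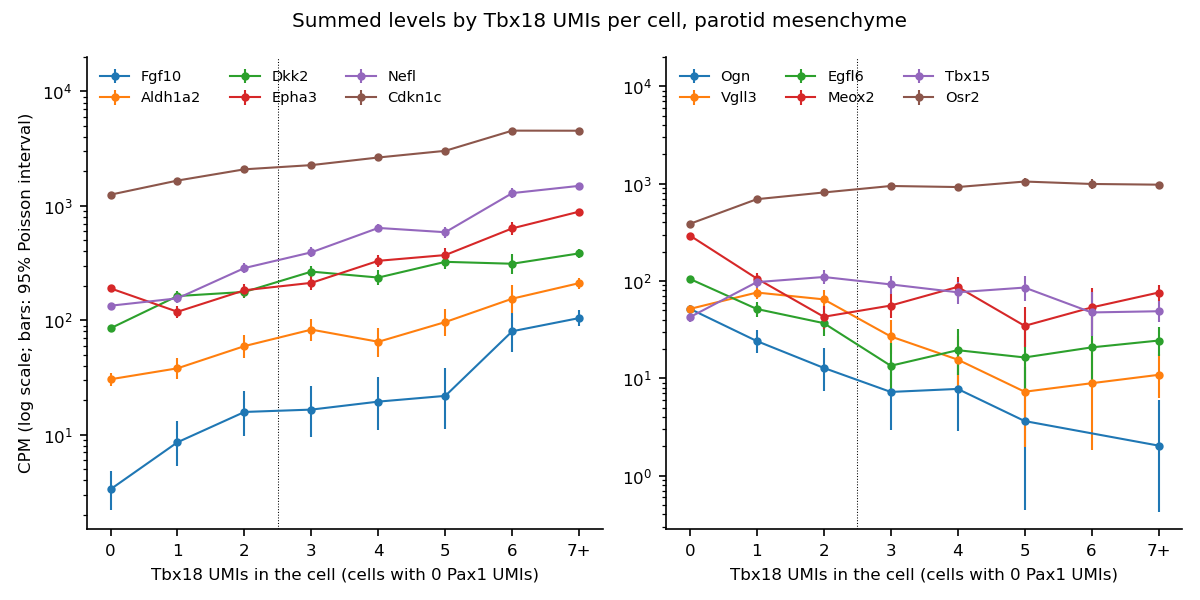
CPM of 12 genes (log scale, 95% Poisson intervals) summed over cells with 0 to 6 and 7 or more Tbx18 UMIs and 0 Pax1; the dotted line marks the rule, and the point of Ogn at 6, with 0 UMIs, is left out. Fgf10, Nefl and Cdkn1c are higher at 7 or more than at 3 and at 2 than at 0, Osr2 levels off after 3 UMIs, and Ogn declines.

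Inside the Tbx18-positive group the 236 cells with 7 or more Tbx18 UMIs differed from the 164 with 3. Of 3227 genes tested, 1.24% were 2-fold higher at 7 or more and 0.527% 2-fold lower, while 14 of the 63 higher genes were 2-fold higher and 0 were 2-fold lower. Those 63 were themselves chosen with these cells. Fst was at 148 against 16.6 CPM (8.93-fold, 5.38 to 15.9), Fgf10 at 105 against 16.6 CPM (6.31-fold, 3.76 to 11.3), Nefm at 383 against 71.5 CPM, Epha3 at 891 against 213 CPM and Cdkn1c at 4538 against 2271 CPM. Osr2 (976 against 946 CPM), Lhx8 (457 against 517 CPM) and Lrrn1 (156 against 162 CPM) did not follow Tbx18 inside the group. Tbx15 ran the other way, at 48.9 against 92.3 CPM. Pax9 (8.83 against 53.9 CPM, a ratio of 0.164, 0.0819 to 0.305) and Msx1 (28.5 against 94.3 CPM, a ratio of 0.303) were lower by more. Cdca7 and Dtl, replication genes picked out after their values were seen, were lower at 7 or more (31.3 against 71.5 CPM and 49.6 against 103 CPM).

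The cells were not uniform. Over 453 Tbx18-positive cells thinned to 5000 UMIs the most variable genes by variance over mean included the noncoding RNA Malat1 (57.7), Actb (29.2), the mitotic gene Ube2c (10.96), Cdkn1c (10.1), the noncoding RNA Meg3 (8.25) and the chromatin genes H2afz (6.26) and Hmgb2 (5.80), where the median gene had 1.05. Such spread was not particular to them. In 1305 Tbx18-zero cells thinned alike it was 48.1 for Malat1, 33.2 for Actb, 7.31 for Ube2c and 4.40 for Cdkn1c. For Meg3, H2afz and Hmgb2 it was 6.14, 5.53 and 4.68 there. Among 378 gene pairs, whose counts share each cell's fixed total, Pearson's r over the 453 cells had a median of 0.0448 and passed 0.3 in size in 56. H2afz and Hmgb2 varied together (0.734), as did Nefl and Nefm (0.719), Epha3 and Nefl (0.590), and Cdkn1c and Nefl (0.537). Meg3 and H2afz ran opposite (-0.496), as did Cdkn1c and H2afz (-0.460). Neurofilament, Epha3, Cdkn1c and Meg3 counts thus tended to be high in the same cells of this library, and low where H2afz was high.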

How the data were processed

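The deposited values are whole-number UMI counts per gene and barcode, not normalized; the authors used Cell Ranger 2.1.1 and the mm10 genome, per the submitters' processing notes. Of 27998 genes, 27645 matched a GRCm38 annotation by identifier. Counts were summed over cells and given as CPM, with exact Poisson intervals, exact conditional binomial intervals for ratios and Clopper-Pearson intervals for shares (95%, counting error only; scipy 1.17.1, numpy 2.4.6, pandas 2.3.3). A gene was called with at least 50 CPM in the higher group and a ratio of at least 2; list members needed 20 CPM. The 4 genes of the rule were left out. No doublet caller was run. Intervals and calls were run on simulated Poisson counts, the model that the intervals assume. This checks the calculation and cannot show how the intervals do with the spread between real cells. The cells, gene lists and alternatives were chosen with earlier results of these data known.

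Named genes were the 12 highest and 12 lowest ratios (without haemoglobin, mitochondrial, ribosomal, gene model, sex-linked, immediate early and other-class marker genes), up to 4 members of each list with the largest ratio in size, the 8 most variable genes, and Tbx18, Tbx15 and Pax1. Other genes named were picked after their values were seen. Some genes that the rule takes are not reported here. The parotid mesenchyme library holds 30815632 UMIs in 4488 barcodes, of which 4421 passed the filters.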

Additional observations from a re-analysis of the deposited data

Results flagged for a closer look

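In 3 of the 24 genes with the highest and lowest parotid ratios the submandibular ratio of cells with at least 1 Tbx18 UMI to cells with 0 lay on the other side of 1, with an interval that did not reach 1. Fgf10 was 20.0-fold higher with Tbx18 in the parotid and at a ratio of 0.505 in the submandibular library. Aldh1a2 was 5.77-fold higher and at 0.766. Ogn was 12.3-fold lower and at 1.89. The cells of the 2 glands were picked at 3 and at 1 Tbx18 UMIs, each gland is 1 library, and the difference was not tested.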

How the results depend on the processing

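With 1 library per group, no test was run, and no paired analysis was possible because no group has a second library. The number of higher genes stayed between 53 and 84 and that of lower genes between 22 and 35 when the Tbx18 or Pax1 rule, the thinning, the depth of the comparison cells, the averaging, the scaling (TMM, which moved log2 ratios by 0.09), the barcode filter, the mesenchymal gate or likely doublets were changed, and when cells over 1% haemoglobin were left out, a choice made after seeing the data. The size rule moved them: 134 higher and 71 lower genes at 20 CPM, 37 and 14 at 100 CPM, and 152 and 58 at a ratio of 1.5. The share of Tbx18-positive cells was 25.1% at 2 Tbx18 UMIs, 10.8% at 5, 21.1% with any Pax1, 17.0% when chosen after thinning and 24.3% with a gate of 5 UMIs. Of 44 named genes past 2-fold, 42 kept their sign in all 13 alternatives and 33 stayed past 2-fold in all of them. Those that did not were Acta2, the 4 named haemoglobin genes, Foxp1, Ldha, Itm2a, Cdh2, Col6a2 and Lum, whose lowest ratio was 1.99. The exceptions in sign were Acta2, at a log2 ratio of 0.088 without likely doublets, and Hba-a1, at 0.048 without cells over 1% haemoglobin. In submandibular mesenchyme the median log2 ratio of the higher genes was 0.34 over the 9 cells of the same rule, 0.55 at 2 or more Tbx18 UMIs (24 cells) and 0.45 at 1 or more. Depth limits the shares of cells with a UMI, since a gene at 50 CPM averages under 1 UMI in a cell of median depth.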
